A study of Mus musculus with 7 samples.

Results

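Glutamine amidotransferases are enzymes that take the amide nitrogen of glutamine and build it into another molecule. They are among the enzymes on which DON (6-diazo-5-oxo-L-norleucine), a reactive mimic of glutamine, acts. The 10 mouse genes Ppat, Pfas, Cad, Ctps, Ctps2, Gmps, Gfpt1, Gfpt2, Asns and Nadsyn1 were taken by their symbols from a table of 28666 genes, a rule that uses no measured value. All 10 passed the filter on low counts, as did 17461 genes of the table. The libraries come from bone marrow-derived dendritic cells (BMDCs) of female C57BL/6 mice aged 6 to 8 weeks, grown with GM-CSF and IL-4 for 7 days and kept across a Transwell membrane, which lets medium but not cells pass, from the mouse colon carcinoma line MC38. The study's text describes 24 h of DON, at 5 µM where a dose is named, before the cells were sorted into immature BMDCs (3 libraries) and mature BMDCs (4 libraries). In its account of the co-culture, DON went with added glutamine and the DMSO control with less glutamine. A figure caption of the study names both DMSO and DON for the cells that were sorted. The labels give the stage of the cells but no drug arm, so the comparison is between stages and not between DON and its solvent. The surface markers of the sort are not given in the sources used here. The study's methods describe its data in general as coming from independent biological experiments, but neither they nor the labels say which libraries share animals or cultures, so p-values measure the spread between these libraries, which may in part be technical.

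As background, DON binds the cysteine in the glutaminase site of these enzymes and stays there. Ppat, Pfas and Gmps act in the synthesis of purines, Cad, Ctps and Ctps2 in that of pyrimidines, Gfpt1 and Gfpt2 open the hexosamine pathway that leads to UDP-N-acetylglucosamine, Asns makes asparagine from aspartate, and Nadsyn1 completes NAD. Nucleotide synthesis is known for its high flux in dividing cells, and dendritic cells that mature stop dividing and turn to antigen presentation and secretion.

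Total counts were 54846746 to 67973086 per library. Levels are reported in CPM, that is, counts divided by the TMM-normalized library size, for differences between libraries, and as FPKM, which also divides by gene length, for levels between genes. The stages were compared with the quasi-likelihood test of edgeR, fitted across all 17461 genes with Benjamini-Hochberg adjustment. A gene is said to have risen or fallen in mature BMDCs where its adjusted p was under 0.05, and to have passed both criteria where its log2 fold change was also at least 1 in size. The median log2 fold change of all tested genes was 0.055, and it was 0.16 when libraries were scaled by total counts, a shift of 0.11. The labels were set beside dendritic cell markers, of which 5 of 9 passed both criteria as higher in mature BMDCs and 0 as lower. None was at 0 counts in every library. Cd80 and Cd86 were among these 5, and the study's flow cytometry of tumors took CD80 and CD86 to mark mature cells. If the sort used them too, their rise is no check of the labels. Itgax (CD11c) was lower by adjusted p, at a log2 fold change of -0.41 (SE 0.11, adjusted p = 0.0124 by edgeR). The summed CPM of the dendritic cell markers was 10390 to 11120 in immature and 14030 to 19730 in mature BMDCs. Most of this sum was Cd74, at means of 6604 and 8754 CPM. Cd74 did not pass the test, at a log2 fold change of 0.41 (SE 0.15, adjusted p = 0.0542 by edgeR). Markers of macrophages passed both criteria as lower in 8 of 8 genes, with sums of 1979 to 2069 CPM in immature and 346 to 396 CPM in mature BMDCs. Markers of neutrophils summed to 1.74 to 3.27 and 0.976 to 2.50 CPM, those of epithelial or MC38 cells to 69.9 to 77.3 and 59.2 to 69.5 CPM, and those of T and B cells to 2.12 to 2.33 and 3.34 to 5.62 CPM in immature and mature BMDCs. Most of the epithelial sum was Cdh1, at 50.7 to 57.8 and 47.3 to 54.2 CPM. Epcam, low in both groups at means of 0.268 and 1.28 CPM, passed both criteria as higher, at a log2 fold change of 2.24 (SE 0.47, adjusted p = 0.00436 by edgeR). In such bulk RNA, fewer cells of a type and less RNA per cell cannot be told apart.

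Of the 10 genes, Gfpt2 passed both criteria as higher in mature BMDCs, where 13.2% of all tested genes did, and Asns as lower, where 9.95% did. By the adjusted p alone, Gmps, Gfpt1 and Gfpt2 rose against a background of 23.2%, and Asns, Ctps2 and Ctps fell against one of 22.9%. Ppat, Pfas, Cad and Nadsyn1 did not pass the test. The 2 groups were fully apart in 6 of the 10 genes, the same 6 that passed by adjusted p, as they were in 52.1% of all tested genes. The 10 genes did not share a direction, since 5 log2 fold changes were positive and 5 negative, with a median of 0.012 beside 0.055 over all tested genes.

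**Figure D1:**
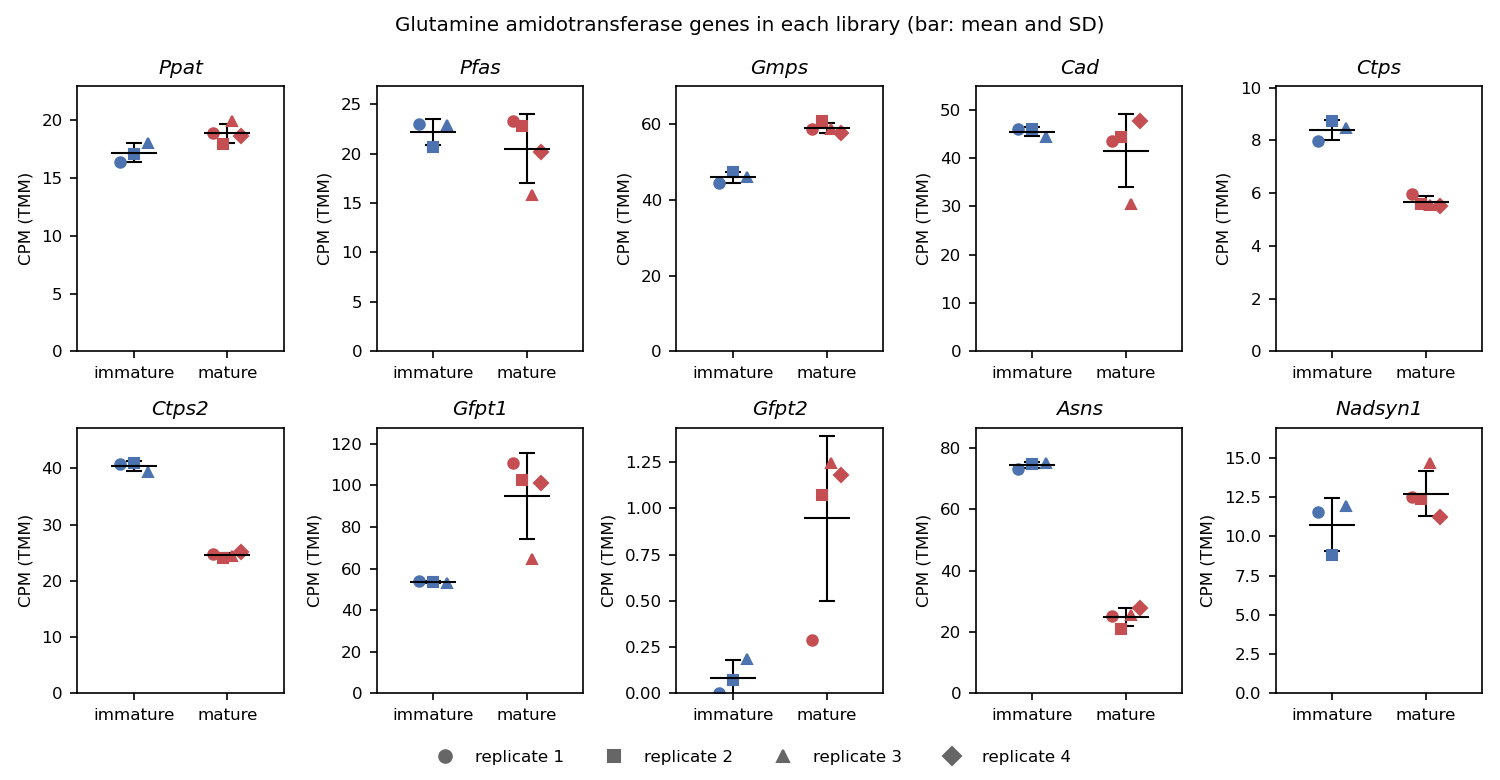
CPM of each glutamine amidotransferase gene (vertical axes, each starting at 0) in the 3 immature (blue) and 4 mature (red) libraries, with replicates marked by symbol and the mean and SD by black bars. Asns lies at 73.3 to 75.2 CPM in immature and 20.9 to 27.7 CPM in mature BMDCs, and mature replicate 3 is the lowest mature value of Gfpt1, Cad and Pfas.

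Asns, asparagine synthetase (ENSMUSG00000029752), moves the amide group of glutamine to aspartate. Its gene lies on the minus strand of chromosome 6 at 7675169 to 7693254 in build GRCm38, with 12 exons in its longest transcript. It had 73.3, 74.9 and 75.2 CPM in immature replicates 1 to 3, and 25.3, 20.9, 25.6 and 27.7 CPM in mature replicates 1 to 4. Every mature library was below every immature one. The mean of 74.5 ± 1.03 CPM (SD, n = 3) in immature BMDCs was 2.99-fold above that of 24.9 ± 2.88 CPM (SD, n = 4) in mature BMDCs, with a log2 fold change of -1.58 (SE 0.10, adjusted p = 4.9e-06 by edgeR).

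The stretch upstream of Asns is shown because it is the one promoter of the 9 genes with a RefSeq window that holds the letters TGATGNAA, a form of the element bound by ATF4, the amino acid response factor known to act on Asns. It covers the 250 bases before the RefSeq start, chr6:7693210-7693459 on the minus strand of GRCm38.p6, and capitals mark those letters. The upstream stretch of Gfpt1, chr6:87042596-87042845 on the plus strand, is shown beside it as that of the gene of this set with the highest mean FPKM in mature BMDCs, and its capitals mark a CCAAT box.
Asns: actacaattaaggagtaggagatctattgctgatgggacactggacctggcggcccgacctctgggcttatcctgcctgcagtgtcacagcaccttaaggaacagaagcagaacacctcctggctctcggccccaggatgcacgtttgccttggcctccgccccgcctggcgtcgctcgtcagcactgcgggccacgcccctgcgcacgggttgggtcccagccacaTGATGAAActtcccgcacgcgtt
Gfpt1: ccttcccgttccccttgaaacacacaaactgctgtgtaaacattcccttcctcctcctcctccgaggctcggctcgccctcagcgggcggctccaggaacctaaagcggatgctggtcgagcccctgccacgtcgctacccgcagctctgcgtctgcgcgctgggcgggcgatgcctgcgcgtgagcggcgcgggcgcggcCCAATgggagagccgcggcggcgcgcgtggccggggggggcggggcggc

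These letters were sought on both strands in windows from 250 bases before to 50 bases after each start. TGATGNAA occurred in 3.97% of the 32851 RefSeq windows, in that of Asns at position -23, and in 1 of 66 windowed genes of the pathway lists described below, Prps1. The deposited extent of Asns runs past the RefSeq start, so this element lies inside it. CCAAT occurred in 37.4% of windows and in those of Gfpt1, Gfpt2 and Ctps2. The E-box CACGTG occurred in 7.15% of windows and in none of the 9 genes. Pfas had no window. A match describes letters and not binding, and no match says only that these letters are not in these windows.

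The genes that use or break down asparagine did not move as one, with 1 of 4 past both criteria in each direction and a median log2 fold change of -0.12. Nars2, the mitochondrial asparaginyl-tRNA synthetase, had 8.64 ± 1.13 CPM in immature and 3.52 ± 0.287 CPM in mature BMDCs (SD, n = 3 and 4). Its log2 fold change was -1.30 (SE 0.15, adjusted p = 0.00016 by edgeR). Nars, the cytosolic enzyme, fell without reaching the fold criterion, at -0.93 on the log2 scale (SE 0.067). Asrgl1, which hydrolyses asparagine and isoaspartyl peptides, rose from 5.96 ± 0.652 to 13.9 ± 2.72 CPM with a log2 fold change of 1.22 (SE 0.17, adjusted p = 0.000504 by edgeR).

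The hexosamine pathway held both genes of its first step, glutamine:fructose-6-phosphate amidotransferase. Gfpt1 (ENSMUSG00000029992, chromosome 6, 87042846 to 87092197, plus strand, 19 exons) had 54.2, 53.8 and 53.1 CPM in immature replicates 1 to 3. Mature replicates 1, 2 and 4 had 111, 102.6 and 101.4 CPM, and mature replicate 3 had 64.4 CPM. All mature libraries were above all immature ones, with mature replicate 3 much nearer to the immature cells than the other 3. The mature mean of 94.9 ± 20.7 CPM (SD, n = 4) was 1.77-fold above the immature mean of 53.7 ± 0.582 CPM (SD, n = 3), with a log2 fold change of 0.82 (SE 0.17, adjusted p = 0.00438 by edgeR). Gfpt1 did not reach the fold criterion, and without mature replicate 3 its log2 fold change was 0.99.

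Gfpt2 (ENSMUSG00000020363, chromosome 11, 49794178 to 49838613, plus strand, 19 exons), the second isozyme, was close to the limit of detection. It had 0, 4 and 12 counts in immature replicates 1 to 3 and 19, 71, 66 and 74 counts in mature replicates 1 to 4, where a count of 0 allows up to 3. The groups did not overlap, yet mature replicate 1 lay nearer to immature replicate 3 than to the other mature libraries. Means were 0.0859 ± 0.0938 CPM (SD, n = 3) and 0.948 ± 0.446 CPM (SD, n = 4), and the log2 fold change of 3.41 had an SE of 0.95 (adjusted p = 0.0175 by edgeR). The call was lost without immature replicate 2, at an adjusted p of 0.0659 by edgeR, and with mature replicate 1 as the only mature library the log2 fold change was 1.74, where the spread is that of the immature libraries alone. Markers of cardiac muscle, of which 8 of 8 passed both criteria as higher and none was at 0 in every library, summed to 4.94 to 5.52 CPM in immature BMDCs, 26.9 CPM in mature replicate 1 and 693 to 818 CPM in mature replicates 2 to 4. Most of the sum in mature replicate 1 was Tnni3, at 23.98 CPM. Myh6 had 0.50 CPM there, below its immature range of 0.71 to 1.06 CPM. Mb had 0.29 CPM there, within its immature range of 0.11 to 0.43 CPM. Gfpt2 was thus low in the same mature library as the cardiac sum. The part of the cardiac transcripts in the difference of Gfpt2 was not tested.

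As the isozymes catalyse the same step, their ratio was compared within libraries. The log2 ratio of Gfpt2 over Gfpt1, with 0.1 added to each FPKM, was -5.61, -5.47 and -5.15 in immature replicates 1 to 3 and -6.16, -5.18, -4.31 and -5.02 in mature replicates 1 to 4. The groups overlapped. Means were -5.41 ± 0.24 (SD, n = 3) and -5.17 ± 0.76 (SD, n = 4), and the difference of 0.24 had p = 0.686 by a two-sided exact permutation test. Gfpt2 was below 0.1 FPKM in every immature library and in mature replicate 1, so this value depended on the amount added. The difference was 1.99 with 0.01 added (p = 0.114 by the same exact test). Over 35 possible labelings of 3 and 4 libraries this test cannot go below 0.0571.

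Further down the pathway, 1 of 11 tested genes passed both criteria in each direction, with 3 higher and 4 lower by adjusted p and a median of -0.20. Uap1, which makes UDP-N-acetylglucosamine, rose from 40.7 ± 1.24 to 83.7 ± 3.95 CPM with a log2 fold change of 1.04 (SE 0.077, adjusted p = 9.9e-06 by edgeR). Its relative Uap1l1 fell from 93.0 ± 6.27 to 40.6 ± 8.17 CPM, at -1.19 (SE 0.15). Amdhd2, an enzyme that removes the acetyl group from N-acetylglucosamine-6-phosphate, fell at -0.95 (SE 0.14) without reaching the fold criterion. Gfpt1 and Uap1, the first and last enzymes of the route to UDP-N-acetylglucosamine, were both higher in every mature library than in any immature one. The groups were apart in 52.1% of all tested genes. For the enzymes between them, Gnpnat1 and Pgm3, the groups overlapped. Gnpnat1 had a log2 fold change of 0.87 (SE 0.27, adjusted p = 0.0271 by edgeR). Pgm3 had one of -0.28 (SE 0.14, adjusted p = 0.129 by edgeR).

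**Figure D2:**
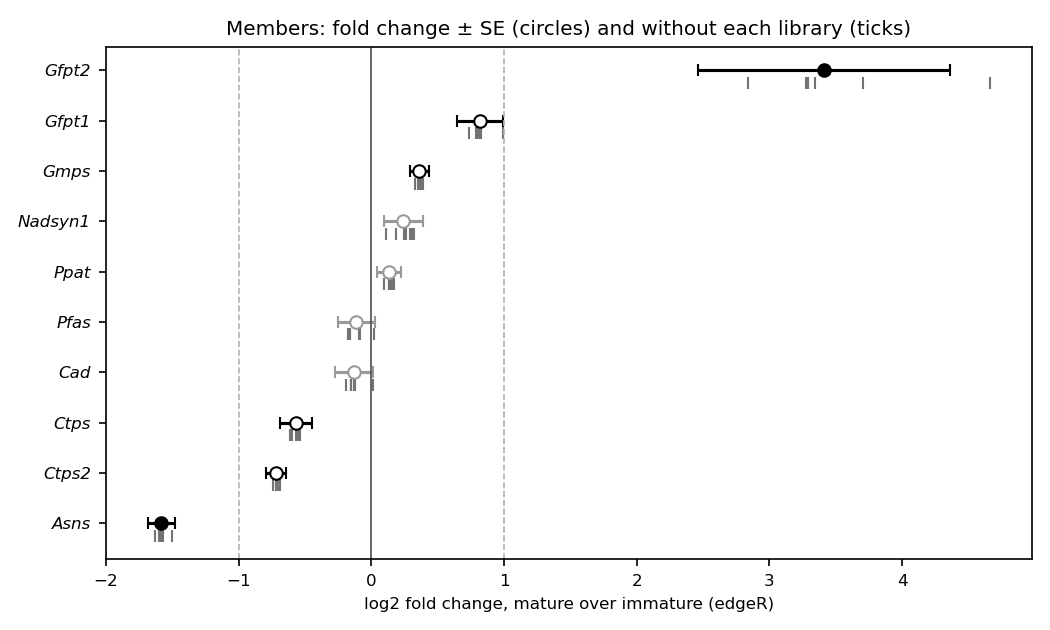
Log2 fold change of each glutamine amidotransferase gene, mature over immature, with its SE (circles and bars) and the values without each library in turn (grey ticks). Filled circles passed both criteria, black open ones the adjusted p alone and grey ones neither, and dashed lines mark a log2 fold change of 1 in either direction. Asns lies at -1.58 and its ticks span -1.63 to -1.50, while those of Gfpt2 span 2.84 to 4.66.

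In pyrimidine synthesis, both CTP synthetases fell. They turn UTP into CTP with the nitrogen of glutamine. Ctps2 (ENSMUSG00000031360, chromosome X, 162901238 to 163032501, plus strand, 19 exons) had 40.7, 41.0 and 39.3 CPM in immature replicates 1 to 3 and 24.7, 24.02, 24.3 and 25.1 CPM in mature replicates 1 to 4. The libraries of each group lay close together and the groups were apart. Means were 40.4 ± 0.914 and 24.5 ± 0.461 CPM (SD, n = 3 and 4), a 1.64-fold lower level with a log2 fold change of -0.72 (SE 0.075, adjusted p = 7.82e-05 by edgeR).

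Ctps (ENSMUSG00000028633, chromosome 4, 120539868 to 120570276, minus strand, 19 exons) had 7.99, 8.75 and 8.48 CPM in immature replicates 1 to 3. Mature replicates 1 to 4 had 5.99, 5.61, 5.56 and 5.50 CPM, all below the immature libraries. The level was 1.48-fold lower in mature BMDCs, with means of 8.41 ± 0.386 and 5.66 ± 0.220 CPM (SD, n = 3 and 4) and a log2 fold change of -0.57 (SE 0.12, adjusted p = 0.00489 by edgeR). The log2 ratio of Ctps2 over Ctps, from FPKM plus 0.1, was 1.66 to 1.80 in immature and 1.49 to 1.62 in mature libraries. These ranges did not overlap, and the difference of -0.16 reached the smallest p that the two-sided exact permutation test can give, 0.0571, or 0.114 adjusted over the 2 isozyme ratios.

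Cad, a single protein that carries the first 3 activities of pyrimidine synthesis (ENSMUSG00000013629, chromosome 5, 31054780 to 31078479, plus strand, 44 exons), had 44.4 to 46.1 CPM in immature BMDCs. Mature replicates 1, 2 and 4 had 43.5, 44.4 and 47.7 CPM and mature replicate 3 had 30.5 CPM, so the groups overlapped. Means were 45.5 ± 0.964 and 41.5 ± 7.60 CPM (SD, n = 3 and 4), with a log2 fold change of -0.13 (SE 0.15, adjusted p = 0.501 by edgeR). Without mature replicate 3 the sign turned, at a log2 fold change of 0.016.

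Among the other genes of the pathway 1 of 6 passed both criteria as lower and 0 as higher, 4 were lower by adjusted p, and the median was -0.36. Umps, which makes UMP after the step of Dhodh, had 27.5, 24.4 and 29.2 CPM in immature replicates 1 to 3 and 11.2, 10.6, 9.42 and 10.4 CPM in mature replicates 1 to 4. Its groups were far apart, with a log2 fold change of -1.38 (SE 0.11, adjusted p = 1.17e-05 by edgeR). Nme1, a nucleoside diphosphate kinase, fell at -0.92 on the log2 scale (SE 0.20) without reaching the fold criterion. Cmpk2, a mitochondrial nucleotide kinase, only just passed by adjusted p, at -0.43 (SE 0.15, adjusted p = 0.0486 by edgeR), and no alternative gave it a lower adjusted p.

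In purine synthesis, Gmps rose and the other 2 amidotransferases did not pass the test. Gmps, GMP synthetase (ENSMUSG00000027823, chromosome 3, 63976106 to 64022579, plus strand, 16 exons), aminates XMP to GMP. It had 44.3, 47.4 and 45.9 CPM in immature replicates 1 to 3 and 58.6, 60.9, 58.6 and 57.6 CPM in mature replicates 1 to 4. All mature libraries were above the immature ones by a small margin relative to their level. Means were 45.9 ± 1.53 and 58.9 ± 1.39 CPM (SD, n = 3 and 4), a 1.28-fold higher level with a log2 fold change of 0.36 (SE 0.072, adjusted p = 0.00342 by edgeR).

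Ppat, which commits PRPP to the pathway (ENSMUSG00000029246, chromosome 5, 76913249 to 76951578, minus strand, 12 exons), ranged from 16.4 to 18.0 CPM in immature and from 18.0 to 19.95 CPM in mature BMDCs. The groups overlapped by a narrow margin and the log2 fold change was 0.14 (SE 0.090, adjusted p = 0.251 by edgeR). Its 5′ end overlaps by 272 bases that of Paics, a later enzyme of the pathway transcribed from the opposite strand, and whether the counting used strand is not given in the sources used here. Paics itself rose from 132 ± 6.17 to 196 ± 5.24 CPM (SD, n = 3 and 4), at a log2 fold change of 0.58 (SE 0.072, adjusted p = 0.000228 by edgeR). Pfas, which makes formylglycinamidine ribonucleotide (ENSMUSG00000020899, chromosome 11, 68985697 to 69008460, minus strand, 28 exons), had 20.6 to 23.0 CPM in immature BMDCs. Mature replicates 1 to 4 had 23.3, 22.8, 15.8 and 20.1 CPM. Replicates 3 and 4 lay below the immature range, replicate 2 in it and replicate 1 above it. Its log2 fold change was -0.11 (SE 0.14, adjusted p = 0.559 by edgeR), and it was 0.019 without mature replicate 3 and 0.0028 with scaling by total counts.

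Of the 8 other purine enzymes tested, 3 passed both criteria as lower and 0 as higher, with 2 higher and 5 lower by adjusted p and a median log2 fold change of -0.80. Impdh1, one of the IMP dehydrogenases that make XMP, had 21.9, 23.6 and 22.7 CPM in immature replicates 1 to 3 and 5.12, 6.02, 4.94 and 5.74 CPM in mature replicates 1 to 4. Its groups were widely separated, at a log2 fold change of -2.06 (SE 0.11, adjusted p = 1.78e-06 by edgeR). The other IMP dehydrogenase, Impdh2, rose from 47.4 ± 3.23 to 69.8 ± 10.01 CPM, with a log2 fold change of 0.56 (SE 0.12, adjusted p = 0.00567 by edgeR). Adssl1, an adenylosuccinate synthase, fell from 68.2 ± 4.25 to 20.2 ± 4.26 CPM, and Atic, which closes the purine ring, from 146 ± 4.09 to 70.7 ± 3.90 CPM, with log2 fold changes of -1.76 (SE 0.16) and -1.05 (SE 0.075). Atic stood close to the fold criterion and missed it under 7 of 21 alternatives, among them the omission of mature replicate 3, at -0.99.

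The genes that supply PRPP and one-carbon units also moved both ways, with 1 of 14 past both criteria as higher, 2 as lower, and a median of -0.34. Prps1, a PRPP synthetase, rose from 14.1 ± 0.704 to 38.4 ± 2.27 CPM (SD, n = 3 and 4), at a log2 fold change of 1.45 (SE 0.092, adjusted p = 4.12e-06 by edgeR). A close copy of it, Prps1l3, had 13.8 ± 1.37 and 15.7 ± 1.72 CPM, and how reads shared by the copies were assigned is not given in the sources used here. Phgdh and Psat1, the first enzymes of serine synthesis, fell from 56.0 ± 1.99 to 15.9 ± 5.41 CPM and from 67.1 ± 3.02 to 24.7 ± 4.84 CPM, with log2 fold changes of -1.81 (SE 0.23) and -1.44 (SE 0.15).

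In nucleotide salvage, 2 of 15 genes passed both criteria as lower and 0 as higher, with 4 higher and 5 lower by adjusted p and a median of -0.059. Dck, deoxycytidine kinase, fell from 54.4 ± 3.66 to 21.8 ± 1.44 CPM and Upp1, uridine phosphorylase, from 15.4 ± 0.95 to 7.53 ± 1.45 CPM, with log2 fold changes of -1.32 (SE 0.091) and -1.03 (SE 0.17). Upp1 missed the fold criterion under 9 of 21 alternatives, among them the omission of immature replicate 2, at -0.996, and of mature replicate 1, at -0.91. Uprt had a log2 fold change of -0.99 but an SE of 0.37, and did not pass the test. Proliferation markers moved beside these nucleotide genes: 9 of 16 passed both criteria as lower and 0 as higher. By adjusted p alone 14 were lower and 2, Mcm6 and Tyms, were higher. The summed CPM of the markers was 894 to 944 in immature and 473 to 544 in mature BMDCs, and none was at 0 in every library. The part of this difference in the nucleotide genes was not tested.

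**Figure D3:**
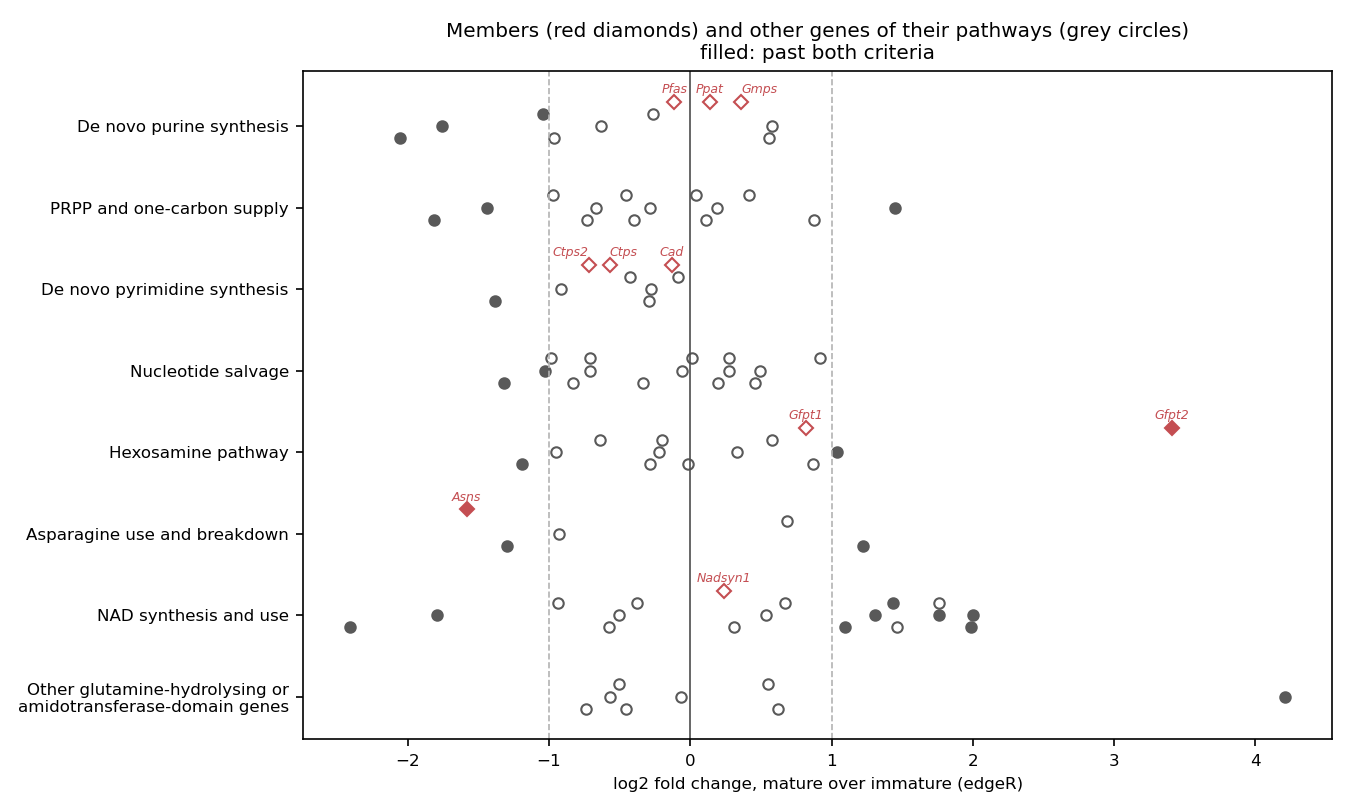
Log2 fold change, mature over immature, of the glutamine amidotransferase genes (red diamonds, named) and of the other tested genes of each pathway list (grey circles). Filled symbols passed both criteria, and dashed lines mark a log2 fold change of 1 in either direction. Purine and pyrimidine lists hold filled circles to the left alone (3 and 1), and the NAD list holds 6 to the right and 2 to the left.

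Nadsyn1, NAD synthetase (ENSMUSG00000031090, chromosome 7, 143795584 to 143822849, minus strand, 21 exons), had 11.5, 8.79 and 11.9 CPM in immature replicates 1 to 3 and 12.5, 12.4, 14.7 and 11.3 CPM in mature replicates 1 to 4. The groups overlapped, and the log2 fold change was 0.24 (SE 0.15, adjusted p = 0.218 by edgeR). Around it, the NAD list held 6 of 17 tested genes past both criteria as higher and 2 as lower, with a median of 0.67. Kynu, kynureninase, an enzyme of tryptophan breakdown, had 38.2, 31.1 and 37.1 CPM in immature replicates 1 to 3 and 151, 135, 133 and 149 CPM in mature replicates 1 to 4. Its groups did not overlap, with a log2 fold change of 2.00 (SE 0.10, adjusted p = 1.34e-06 by edgeR).

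Haao, Kmo and Afmid, further enzymes of tryptophan breakdown, rose with log2 fold changes of 1.76, 1.44 and 1.31 (SE 0.12, 0.17 and 0.18). Ido1 and Ido2, which open it, and Qprt, which leads from it to the NAD branch of Nadsyn1, did not pass the test, and their group means were 0.132 to 0.50 CPM. Nampt, the rate-limiting enzyme of salvage from nicotinamide, fell at -0.93 (SE 0.076) without reaching the fold criterion. Naprt, which starts from nicotinic acid and feeds the same last step, rose from 2.71 ± 0.554 to 10.8 ± 2.14 CPM (SD, n = 3 and 4), at 1.99 (SE 0.23), and Nmnat3, a mitochondrial NMN adenylyltransferase, rose at 1.10 (SE 0.10). Bst1 and Cd38, surface enzymes that consume NAD, were the 2 that fell past both criteria. Bst1 went from 155 ± 4.74 to 29.3 ± 7.72 CPM and Cd38 from 43.2 ± 1.62 to 12.5 ± 2.86 CPM, with log2 fold changes of -2.41 (SE 0.21) and -1.79 (SE 0.18).

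Other genes that hydrolyse glutamine or carry an amidotransferase domain were listed for comparison, and 1 of 8 passed both criteria. It was Gls2, a mitochondrial glutaminase, with 0.409, 0.449 and 0.682 CPM in immature replicates 1 to 3 and 11.3, 9.39, 9.27 and 8.43 CPM in mature replicates 1 to 4. The mature libraries were all far above the immature ones, at a log2 fold change of 4.21 (SE 0.24, adjusted p = 2.22e-06 by edgeR). Qrsl1, a subunit of the mitochondrial glutamyl-tRNA amidotransferase, fell at -0.74 (SE 0.13). Over all 83 tested genes of the 8 lists, 10 were higher and 12 lower past both criteria, beside 13.2% and 9.95% of all tested genes. Their median log2 fold change was -0.26 beside 0.055 over all tested genes.

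The order of the 10 genes by FPKM differed between the stages. In immature BMDCs, Asns led with 23.9 ± 0.526 FPKM (SD, n = 3), above Ctps2 with 7.51 ± 0.344 FPKM. Gmps, Cad and Gfpt1 followed with means of 4.97, 4.87 and 4.68 FPKM, neighbours whose library ranges overlapped. Ppat was next at 3.41 FPKM, then Nadsyn1, Pfas and Ctps at 2.84, 2.45 and 2.22 FPKM, again with overlapping neighbours, and Gfpt2 last at 0.0133 FPKM. In mature BMDCs Gfpt1 and Asns came first with 8.98 ± 2.26 and 8.59 ± 0.919 FPKM (SD, n = 4), and their ranges overlapped. Gmps followed at 6.89 FPKM. Ctps2, Cad and Ppat, at 4.91, 4.82 and 4.04 FPKM, were again neighbours with overlapping ranges, and below them stood Nadsyn1 at 3.62, Pfas at 2.46, Ctps at 1.61 and Gfpt2 at 0.155 FPKM. Among all tested genes, Asns moved from a level above 89.5% of genes to one above 73.5%, and Gfpt1 from one above 61.9% to one above 74.4%.

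Put as shares of the 10 genes' summed FPKM, Asns made up 41.6, 42.4 and 42.1% in immature replicates 1 to 3 and 18.2, 15.8, 20.9 and 20.1% in mature replicates 1 to 4. Gfpt1 made up 8.06 to 8.37% in immature libraries and 21.7, 21.1, 14.3 and 19.9% in mature replicates 1 to 4. Neither gene's shares overlapped between the groups. As the shares of a library add up to the whole, a lower share of Asns leaves more to the other genes. The shares of Gmps, Ppat, Nadsyn1 and Gfpt2 were also apart and higher in mature BMDCs. The share of Ctps2 was apart and lower, at 12.75 to 13.44% in immature and 10.27 to 11.53% in mature BMDCs. Ppat and Nadsyn1 did not pass the test on CPM. Their FPKM values, which are scaled by library total and not by TMM, were apart too. Scaling by total counts raised the median log2 fold change of all tested genes by 0.105, so this separation is no further test of a rise. Ppat had 3.28 to 3.48 and 3.99 to 4.12 FPKM, and Nadsyn1 2.37 to 3.08 and 3.23 to 3.92 FPKM, in immature and mature BMDCs. The sum itself was 55.8 to 57.8 FPKM in immature BMDCs. It was 49.1, 47.6, 39.5 and 48.1 FPKM in mature replicates 1 to 4. The depth of a sum of FPKM cannot be given as a count, so these shares carry no interval.

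**Figure D4:**
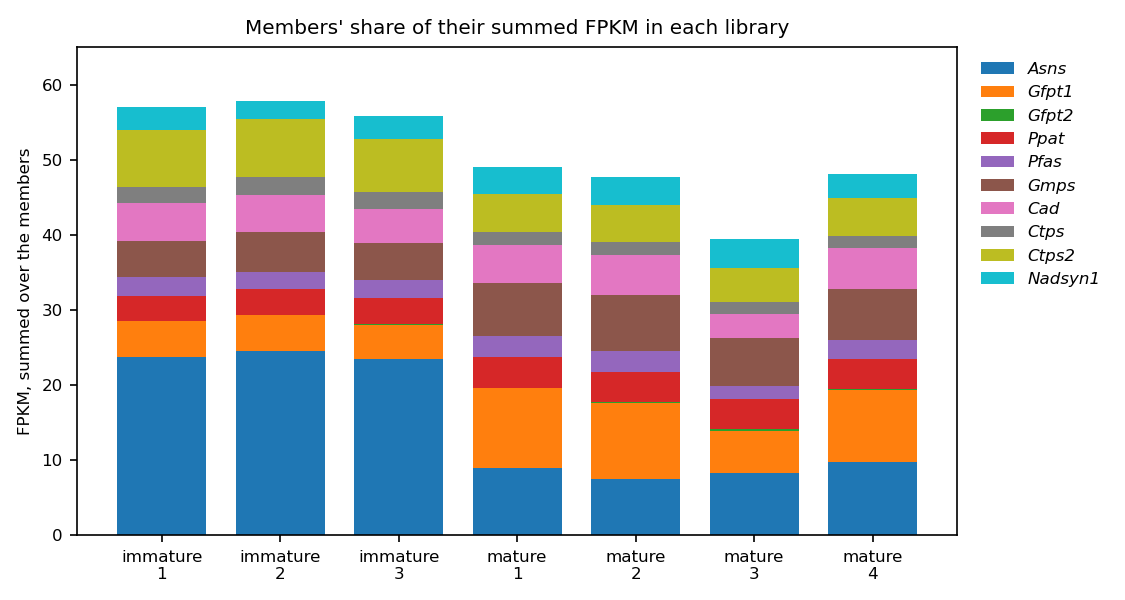
FPKM of the 10 glutamine amidotransferase genes stacked in each library (vertical axis from 0, in FPKM summed over the genes). The Asns segment takes 41.6 to 42.4% of the immature and 15.8 to 20.9% of the mature bars, and mature replicate 3 has the shortest bar at 39.5 FPKM.

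Mature replicate 3 was the lowest mature library for 3 of the 10 genes with long transcripts, but not for all genes with one. The log2 ratio of its CPM over the mean of mature replicates 1, 2 and 4 was -0.70 for Gfpt1, -0.57 for Cad and -0.49 for Pfas, whose longest annotated transcripts have 6238, 7137 and 6373 bases. Over all tested genes its median was 0.38 for transcripts of up to 2000 bases and -0.50 for those over 6000 bases. Gmps, with the longest transcript of the 10 genes at 8105 bases, had a ratio of -0.010. Ppat, at 4158 bases, had a ratio of 0.11, where the median over all tested genes of 4000 to 6000 bases was -0.23. The 6 genes other than Gfpt1, Cad, Pfas and Gmps, at 2016 to 4158 bases, had ratios of -0.035 to 0.56. The part of transcript length in these values was not tested.

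**Figure D5:**
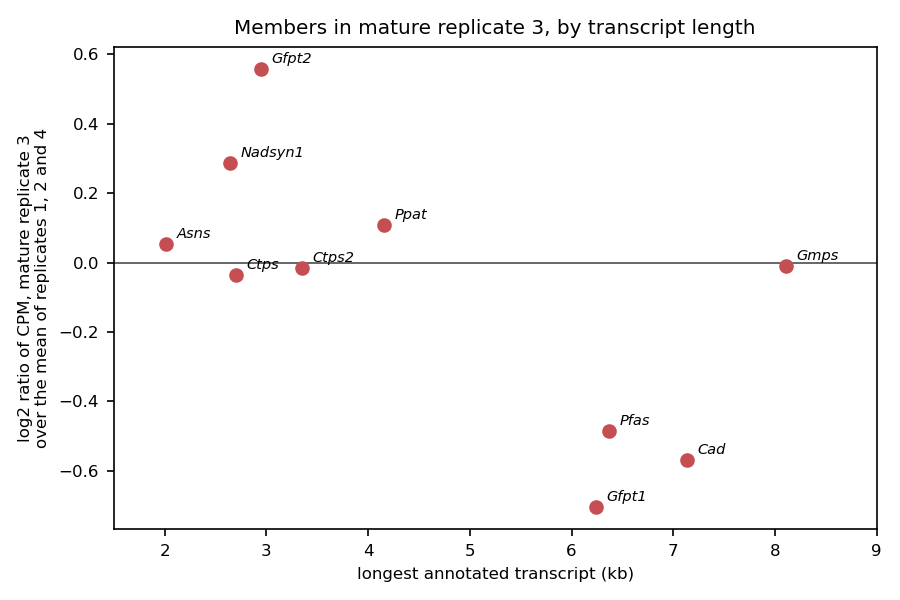
Log2 ratio of CPM in mature replicate 3 over the mean of mature replicates 1, 2 and 4 (vertical axis) against the longest annotated transcript in kb (horizontal axis) for each of the 10 genes. Gfpt1, Cad and Pfas lie between -0.70 and -0.49, and Gmps, at the right, lies at -0.010.

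The genes most like the 2 called genes across the 7 libraries were sought among 11322 genes with a mean FPKM of at least 1, by Pearson's r of log2 CPM, as a description over libraries that share these 2 groups. Those nearest to Asns were Mmp9, Mgl2 and Tifab, with r of 0.999, 0.999 and 0.998, and 1701 genes had r over 0.95 with it. Mmp9, a secreted gelatinase, had 41.2 to 41.4 CPM in immature and 9.21 to 12.0 CPM in mature BMDCs. Nearest to Gfpt2 were Pomk, Plekhf1 and Hspb8, with r of 0.991, 0.984 and 0.977, and 26 genes had r over 0.95 with it. Hspb8, a small heat shock protein, had 1.28 to 2.50 CPM in immature BMDCs, 2.44 CPM in mature replicate 1 and 5.31 to 6.00 CPM in mature replicates 2 to 4, so it too was low in mature replicate 1.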

How the data were processed

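RNA of sorted immature (3 libraries) and mature (4 libraries) BMDCs was analysed, with groups and replicate numbers from the sample labels. Libraries of MC38 cells given the compound T26 were not analysed here. The labels describe poly(A) RNA and a dUTP kit that marks strand. The table the authors deposited holds raw whole-number counts for each gene and FPKM values, which scale fragments by gene length and library total. The submitters' processing notes name cutadapt 1.9, HISAT2 2.2.1, StringTie 2.1.6, DESeq2, edgeR and build mm9, with no roles. The deposited coordinates are those of GRCm38: 90.1% of the 28666 genes had the same start and end as in GENCODE M21.

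The count test was that of edgeR 4.0.16 under R 4.3.3 (filterByExpr, TMM, quasi-likelihood F test, Benjamini-Hochberg adjustment over 17461 genes), on all 7 libraries and mature minus immature. As in the study's methods, the criteria were a log2 fold change of 1 or more in size with an adjusted p below 0.05. SEs were computed as the absolute log2 fold change over the square root of F. Ratios used log2 of FPKM + 0.1 and two-sided exact permutation tests over libraries. Alternatives included DESeq2 1.42.0, limma 3.58.1 on log2(FPKM + 1), other scalings and filters, the omission of each library, and the replicate number as a block. Promoter windows are those of RefSeq, and 9 of the 10 genes matched one by symbol. Figures were drawn with matplotlib 3.10.9. Total counts were 54846746 to 67973086 per library, and counting limits cover counting error only.

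The 10 genes, the 8 pathway lists and the 7 marker lists were proposed with earlier results of these data known, although the rule for the 10 genes itself uses no measured value. Named were the 10 genes, each list gene past both criteria and, where fewer than 3 passed, those with the largest change up to 3, plus the 3 genes most like the largest rise and the largest fall. Paics, Prps1l3 and Dhodh are named beside these because they overlap, copy or precede a named gene. Impdh2, Gnpnat1, Pgm3, Ido1, Ido2, Qprt and Nampt were added after their values were seen. The same holds for the markers Itgax, Cd74, Cd80, Cd86, Epcam, Cdh1, Tnni3, Myh6, Mb, Mcm6 and Tyms. One list gene that this rule names is not reported here.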

Additional observations from a re-analysis of the deposited data

Results flagged for a closer look

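Among the 4 mature libraries, 42 values were examined for a library that stood away from the rest (Dixon's test at 95%), and 3 had one, where chance gives about 5%. Amdhd2 had 33.9 CPM in mature replicate 3 and 23.8 to 24.03 CPM in the other 3, so that the gap made up 0.975 of the range. Bst1 had 17.7 CPM in mature replicate 1 and 32.1 to 33.9 CPM in the others, with a gap of 0.887 of the range. The summed FPKM of the 10 glutamine amidotransferase genes came to 39.5 for mature replicate 3, against 47.6 to 49.1 for the others, with a gap of 0.851 of the range. Mature replicates 1 and 3 stayed in the comparisons, and the immature group of 3 libraries was not examined in this way.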

How the results depend on the processing

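Asns kept its direction and passed both criteria under all 21 alternatives, with log2 fold changes of -1.64 to -1.38. Of 206 log2 fold changes of the 10 genes under the alternatives, 193 kept their direction and side of the criteria, 2 lost the call, 6 gained one and 5 turned their sign. The turned values were those of Pfas with scaling by total counts (0.0028) and with mature replicate 1 alone (0.098), of Cad with mature replicates 2 and 4 only (0.038), and of both genes when libraries were left out in turn (Pfas -0.18 to 0.019, Cad -0.19 to 0.016). Of 605 values of the 29 named pathway genes, 569 kept both, 19 lost (9 of Upp1 and 7 of Atic) and 17 gained a call, and 0 turned. Without the fold criterion, 3 of the 10 genes were higher and 3 lower, as were 24 and 35 pathway genes and 4047 and 4006 of all genes. By adjusted p alone, Ppat also rose with scaling by total counts (adjusted p = 0.0476 by edgeR). With limma on log2(FPKM + 1) and log2(FPKM + 0.1), Ppat rose at an adjusted p of 0.0389 and 0.0366 by limma. Nadsyn1 rose in the same fits at 0.0474 and 0.0475 by limma. On log2(TPM + 1) neither gene passed, at an adjusted p of 0.191 and 0.109 by limma. With glmTreat at 0.5, 2 of the 10 genes and 21 pathway genes were lower. Genes higher in mature BMDCs numbered 1228 with a mean FPKM of at least 1, 946 and 1390 with limma on log2(FPKM + 1) and log2(FPKM + 0.1), and 1183 on log2(TPM + 1). Gfpt2 did not pass these filters, which left 0 of the 10 genes higher. Genes lower numbered 822 with limma on log2(FPKM + 1). When libraries were left out in turn, 0 to 1 of the 10 genes were higher, and the difference in the ratio of Gfpt2 over Gfpt1 was -0.0444 to 0.573, turning without mature replicate 3, while it was 1.99 with 0.01 added to each FPKM and 0.47 on CPM. The cause of these changes was not tested beyond the filters. Same-numbered libraries did not deviate together (r of 0.029, -0.0011 and 0.014, with 3 of 6 libraries closest to their own number), so the numbers were not taken to pair them. With the replicate number as a block, 1936 genes were higher and 1680 lower, the log2 fold change of Asns was -1.64 and the adjusted p of Ctps by edgeR was 0.0566.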
